A study of Homo sapiens with 6 samples.

Results

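The genes of glycolysis and of the response to low oxygen were followed in RKO cells, an established human colorectal carcinoma cell line. The set was a list of 37 genes, found by symbol among the 58735 genes of the expression table, and all 37 were present. It held 15 enzymes of glycolysis, the 2 main lactate dehydrogenase genes, 4 transporters of glucose and lactate, 3 regulatory kinases and 13 genes of the hypoxia response. RNA sequencing covered 6 libraries from 2 stable lines, 3 of cells carrying a control vector (Vector) and 3 of cells overexpressing LOC101927668 (LOC_OE), a long noncoding RNA. Both lines were made with lentivirus and puromycin selection, and both grew in DMEM with 10% FBS at 37 °C and 5% CO2. No low oxygen treatment was named in the labels, and the oxygen in the culture was not given in the sources used here. The experiment asked which genes differ when LOC101927668 is overexpressed. No source tied the 3 replicates of a group to separately made lines, so p-values measure only the spread between these libraries.

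Glycolysis splits glucose into pyruvate in the cytosol and yields ATP without oxygen, and lactate dehydrogenase turns pyruvate into lactate, which leaves the cell through monocarboxylate transporters. The hypoxia inducible factor HIF-1 consists of HIF1A and ARNT. In the presence of oxygen, prolyl hydroxylases (EGLN genes) modify HIF1A and the VHL ubiquitin ligase then directs its degradation. When oxygen falls, HIF-1 binds short elements with the core ACGTG or GCGTG near its targets, which include most glycolytic enzymes, CA9, VEGFA and EGLN3. Many carcinomas, colorectal ones among them, use glycolysis heavily even with oxygen present.

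Library quality and the target were checked first. LOC101927668 itself was read 1, 1 and 0 times in the Vector libraries and 231, 270 and 276 times in the LOC_OE libraries. Reads on genes numbered 15008842 to 18410231 per library. LOC_OE replicate 1 stood apart. Its correlations across genes with LOC_OE replicates 2 and 3 were 0.967 and 0.962, against 0.982 between those 2 libraries and 0.982 to 0.983 among the Vector libraries. The number of genes called in the list is therefore given with and without it. Of 9 colon epithelial markers, CDX2, EPCAM, KRT8 and KRT18 were expressed and passed the filter on low values, whereas VIL1, CDH1, KRT20, LGALS4 and CDH17 were at 0 or near it. None of the 4 tested passed the test with all libraries. Without LOC_OE replicate 1, KRT18 and KRT8 passed it (limma adjusted p = 0.0038 and 0.0291). KRT18 was at 18.8 ± 0.924 FPKM in Vector (SD, n = 3) and at 67.5, 25.3 and 25.1 FPKM in LOC_OE, highest in replicate 1, and its part in the results below was not tested. The 6 fibroblast markers were too low to be tested, and of 7 blood cell markers CD68 alone was tested, at a limma adjusted p of 0.079 and a log2 fold change of −0.53 (adjusted p = 0.0207 without LOC_OE replicate 1). In bulk RNA, fewer cells of a type and less RNA per cell cannot be told apart.

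Levels are given as FPKM, fragments scaled by merged exon length and by a size factor for each library. Comparison between genes holds only as far as that length matches the transcripts present, which was not tested. A gene was tested when its FPKM was at least 0.5 in at least 3 libraries, which left 16061 genes. A gene was called when limma on log2(FPKM + 1) gave a Benjamini-Hochberg adjusted p under 0.05 over all 16061. Log2 fold changes are on that scale, LOC_OE over Vector, and they understate the change of low genes.

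Of the 37 genes, 36 were tested and EGLN3 was too low. Among the 36, 7 were called, which is 19.4%, against 20.4% of all genes tested. PFKM, GAPDH, LDHB, SLC2A3 and SLC16A1 rose in LOC_OE cells, and ALDOC and P4HA2 fell. The share called higher among all genes was 10.7% and the share called lower was 9.74%. With a fold change of at least 1.5 added to the rule, 6 genes remained, 4 higher and 2 lower, which is 16.7% against 10.2% of all genes. SLC2A3 was the gene lost to the fold limit. The share of the list was thus near that of the whole table by adjusted p alone, and above it with the fold limit. That limit acts on a scale that understates the change of low genes. Of the 36 genes, 21 lay in the top of 4 equal bins of all genes by mean Vector FPKM. The 2 shares with the fold limit are therefore not at equal level, and an excess at equal level was not tested. The median log2 fold change was 0.16 over the 36 genes and 0.02 over all genes tested, and 22 of the 36 values were above 0, of which 7 turned negative under the rescaling to equal totals given next. In 4 equal bins of all genes by rising mean Vector FPKM, the median was −0.06, −0.07, 0.06 and 0.15. The top bin, which held 21 of the 36, thus had a median close to that of the list. A shift of the list against genes of equal level was not tested. In 14 genes all LOC_OE libraries lay above all Vector libraries and in 7 all lay below, where 24.4% and 20.9% of all genes did so. CA9 was among the 7, but it passed the filter on low values only through its Vector level and is not taken as support. Without LOC_OE replicate 1, 15 of the 36 were called, 12 higher and 3 lower, which is 41.7% against 36.7% of all genes. Without Vector replicate 1, 3 of 36 were called, or 8.33% against 3.74% of all genes. Without Vector replicate 2 or 3, 2 of 35 were called, or 5.71%, against 1.63% and 2.56% of all genes. After a rescaling that gave all libraries equal FPKM totals, the median of all genes moved to −0.18 and 11 of the 36 were called, 4 higher and 7 lower, where 4.41% of all genes were called higher and 19.6% lower. The 7 genes called first kept their direction under that scaling, and SLC2A3 missed the threshold.

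**Figure D1:**
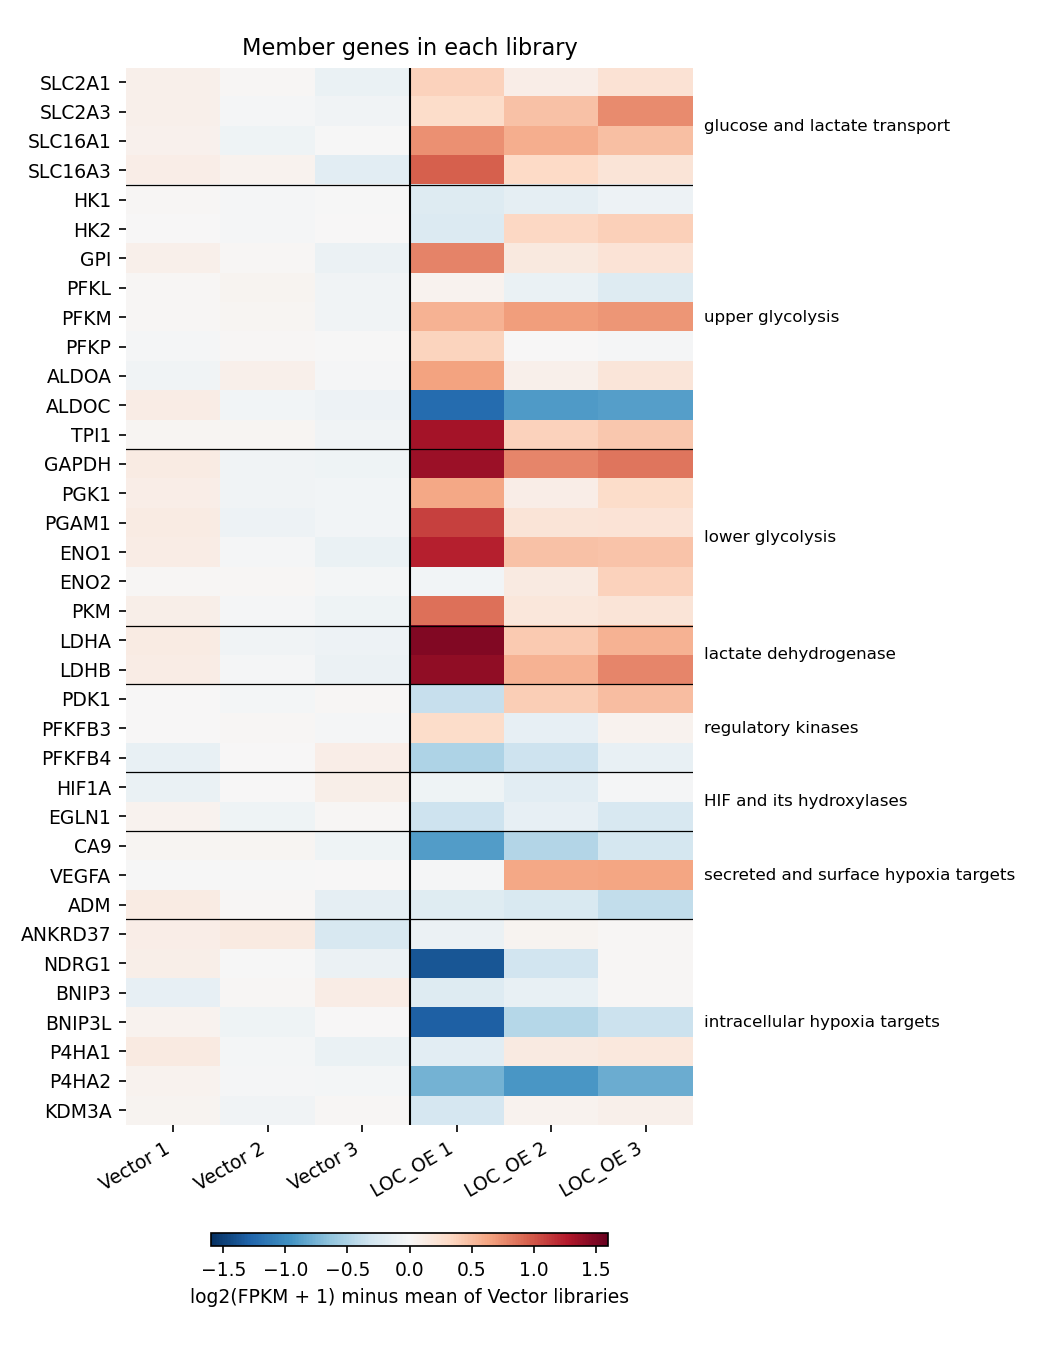
Each cell shows log2(FPKM + 1) of 1 gene in 1 library minus the mean of the 3 Vector libraries, for the 36 tested genes in rows grouped by role and the 6 libraries in columns. Red is higher and blue lower. LOC_OE replicate 1 holds the deepest reds in the lower glycolytic and lactate dehydrogenase genes and the deepest blues in NDRG1, BNIP3L and ALDOC.

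The promoters of the list were searched for the HIF-1 core. RefSeq sequences of GRCh38.p14, running from 250 bases before to 50 bases after a start, matched 32 of the 37 genes and gave 60 promoters. The core was searched as ACGTG or GCGTG on both strands. It was present in 40 of the 60, or 66.7%, and in 48.4% of 35116 promoters of all genes. The ACGTG form alone was in 38.3% of the promoters of the list and in 21.4% of all. Its palindrome CACGTG, which is also the E-box that MYC and other factors recognise, was in 13.3% and 7.26%. The 6 sequences below show a core in context for called genes with one upstream of the start (PFKM, ALDOC and GAPDH), for LDHA, and for the hypoxia targets CA9 and ANKRD37. Each reads 5′ to 3′ on the strand of its gene with the core in capitals.
PFKM: atccagagatCACGTtagggtacac
ALDOC: aagtgcccggCACGTGgtaaagggat
GAPDH: tctgcggggtCACGTGtcgcagagga
LDHA: gcccgactcaCACGTGggttcccgca
CA9: gtttccaatgCACGTacagcccgta
ANKRD37: cgccgggctcCACGTGccagtgtttg
In the order printed, they lie at chr12:48105349-48105373 on the plus strand, chr17:28577120-28577145 on the minus strand, chr12:6535173-6535198 on the plus strand, chr11:18394466-18394491 on the plus strand, chr9:35673900-35673924 on the plus strand and chr4:185396669-185396694 on the plus strand. Their first bases of the core stood 122, 240, 81, 87, 18 and 162 bases before a RefSeq start. The called genes did not share the core: the P4HA2 window held no match and the LDHB window held 1 match after the start. PFKM had several promoters, most of which held no match. SLC2A3 and SLC16A1 had no promoter to search. A match in these windows is a description and not a measured binding site.

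Glucose and lactate transport held 2 of the 7 calls, and the 4 transporters all had fold changes above 0, except that SLC2A1 was at −0.010 after rescaling to equal FPKM totals. SLC2A3 encodes GLUT3, a glucose importer of high affinity. Its FPKM was 9.39, 8.68 and 8.43 in Vector and 11.1, 12.6 and 15.6 in LOC_OE. The groups did not overlap, and SLC2A3 rose with a log2 fold change of 0.51 (SE 0.13, limma adjusted p = 0.0393). Of 6 fits with 1 library omitted, its call held in 1, the fit without LOC_OE replicate 1, and the adjusted p was as high as 0.139 without Vector replicate 2. SLC16A1, the proton-coupled lactate transporter MCT1, read 32.6, 29.8 and 31.1 FPKM in Vector and 52.6, 47.0 and 44.0 FPKM in LOC_OE. Every LOC_OE library was above every Vector library, and SLC16A1 rose by 0.60 on the log2 scale (SE 0.094, limma adjusted p = 0.0114). The call was lost without any 1 of the 3 Vector libraries, at an adjusted p of up to 0.0723. SLC2A1, which encodes the basal glucose importer GLUT1, was at 15.9 ± 1.10 FPKM in Vector and 18.9 ± 1.85 FPKM in LOC_OE (SD, n = 3). Its log2 fold change was 0.24 (95% CI −0.0032 to 0.48, limma adjusted p = 0.142). SLC16A3, the lactate exporter MCT4, had a mean of 8.30 ± 0.931 FPKM in Vector and 12.4 ± 3.97 FPKM in LOC_OE (SD, n = 3). LOC_OE replicate 1 gave the highest value of SLC16A3, 16.9 FPKM, and the log2 fold change was 0.49 (limma adjusted p = 0.142), or 0.26 without that library.

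The upper steps of glycolysis carried calls in both directions. PFKM is the muscle-type subunit of phosphofructokinase, which commits glucose to the pathway. The Vector libraries read 27.3, 27.4 and 25.8 FPKM and the LOC_OE libraries 39.8, 43.3 and 44.3 FPKM, from 3516 to 5079 reads per library. PFKM rose 1.58-fold in mean FPKM, a log2 fold change of 0.64 (SE 0.080, limma adjusted p = 0.0073). It was 0.69 without LOC_OE replicate 1, and just missed the threshold without Vector replicate 2 (adjusted p = 0.0546) or 3 (adjusted p = 0.0517). The liver-type PFKL had a log2 fold change of −0.08 (95% CI −0.31 to 0.14) and the platelet-type PFKP one of 0.11 (95% CI −0.17 to 0.40), and neither was called. PFKP was at 28.5, 29.3 and 28.7 FPKM in Vector and at 37.3, 28.9 and 28.3 FPKM in LOC_OE. The excess lay in LOC_OE replicate 1 alone, and without that library the PFKP fold change was −0.0090.

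Aldolase cleaves fructose-1,6-bisphosphate, and ALDOC is its brain-type isoform. ALDOC read 25.05, 22.2 and 21.7 FPKM in Vector and 9.22, 11.7 and 11.97 FPKM in LOC_OE. The groups lay far apart, and the LOC_OE mean was 0.477 of the Vector mean. ALDOC fell by 1.01 on the log2 scale (SE 0.12, limma adjusted p = 0.0065) and stayed called whichever of the 6 libraries was omitted. ALDOA, the ubiquitous isoform, was read at 2.63 ± 0.177 FPKM in Vector and 3.55 ± 0.969 FPKM in LOC_OE (SD, n = 3). Its exons share 42.3% of their bases with the gene AC093512.2 on the same strand, so that reads of the 2 genes could be split or dropped, and the low ALDOA level is uncertain. The ALDOA log2 fold change was 0.30 (limma adjusted p = 0.209), or 0.14 without LOC_OE replicate 1.

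Hexokinases phosphorylate glucose as it enters the cell. HK1, the ubiquitous form, was at 42.5 ± 0.610 FPKM in Vector and 38.4 ± 1.74 FPKM in LOC_OE (SD, n = 3), and the groups did not overlap. Its log2 fold change was −0.14 (limma adjusted p = 0.226). HK2, an isoform induced in many tumours, was at 28.7, 28.1 and 28.7 FPKM in Vector and at 24.4, 36.1 and 37.3 FPKM in LOC_OE. The LOC_OE libraries thus fell on both sides of Vector, with replicate 1 below. The HK2 fold change was 0.17 (limma adjusted p = 0.508) with all libraries and 0.36 (adjusted p = 0.0028) without replicate 1. GPI, the isomerase of the next step, gave 0.39 (limma adjusted p = 0.168), and 0.19 without LOC_OE replicate 1, which read 65.3 FPKM against 41.4 and 43.5 FPKM in the other two.

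Triosephosphate isomerase and the enzymes of the lower steps were among the most abundant of the list, and each of these 7 genes had a fold change above 0, except that ENO2 was at −0.10 after rescaling to equal FPKM totals and at −0.11 after quantile normalization. GAPDH, the dehydrogenase that yields NADH and a common loading control, was the most abundant gene of the 37. It read 705, 619 and 613 FPKM in Vector and 1659, 1109 and 1169.9 FPKM in LOC_OE, from 33969 to 79189 reads per library. All LOC_OE libraries lay above all Vector libraries and GAPDH rose 2.03-fold in mean FPKM. The log2 fold change was 1.00 (SE 0.178, limma adjusted p = 0.0153), and 0.82 without LOC_OE replicate 1. The call was lost without any 1 of the 3 Vector libraries, with an adjusted p of up to 0.0766. The 62 named copies of GAPDH in the annotation together held 0.366% as many reads as GAPDH, a group of sequences among which reads can be misassigned.

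TPI1, which interconverts the triose phosphates, was at 217, 218 and 204 FPKM in Vector and 536, 275 and 288 FPKM in LOC_OE. ENO1, the main enolase, read 304, 276 and 258 FPKM in Vector and 662, 385 and 384 FPKM in LOC_OE. Both were above Vector in every LOC_OE library, and replicate 1 was far above the other two. For TPI1 the log2 fold change was 0.71 (SE 0.257, limma adjusted p = 0.0978), and for ENO1 it was 0.72 (SE 0.227, limma adjusted p = 0.0682). Without replicate 1 the values were smaller, 0.40 and 0.46, with SEs of 0.057 and 0.080, and passed the threshold at 0.0045 and 0.0084. ENO2, the neuronal enolase, gave 53.6, 53.8 and 51.8 FPKM in Vector and 51.3, 58.7 and 68.7 FPKM in LOC_OE. Its groups overlapped, at a log2 fold change of 0.15 (limma adjusted p = 0.39), or 0.25 (adjusted p = 0.0423) without replicate 1. PGK1 and PKM, the 2 kinases that make ATP, and PGAM1, the mutase, had log2 fold changes of 0.34, 0.42 and 0.51. Without replicate 1 these were 0.20, 0.19 and 0.21, and none was called in either fit.

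Lactate dehydrogenase is a tetramer of LDHA and LDHB subunits, of which LDHA favours lactate formation. LDHB read 16.5, 15.04 and 14.2 FPKM in Vector and 42.5, 22.9 and 26.8 FPKM in LOC_OE. The groups did not overlap and LDHB rose with a log2 fold change of 0.92 (SE 0.22, limma adjusted p = 0.0327). Without LOC_OE replicate 1 it was 0.67 (adjusted p = 0.0040), and the call was lost without any 1 of the Vector libraries (adjusted p up to 0.115) or LOC_OE replicate 3 (0.0554). LDHB shares 33.4% of its exon bases with AC010197.2 on the same strand, which held 2 reads in all, so the LDHB level is uncertain too. LDHA, the more abundant subunit, was at 84.7, 74.1 and 72.5 FPKM in Vector and at 217, 103 and 113 FPKM in LOC_OE. It lay higher in all 3 LOC_OE libraries, at a log2 fold change of 0.82 (SE 0.28, limma adjusted p = 0.0858) and of 0.48 (adjusted p = 0.0087) without replicate 1.

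**Figure D2:**
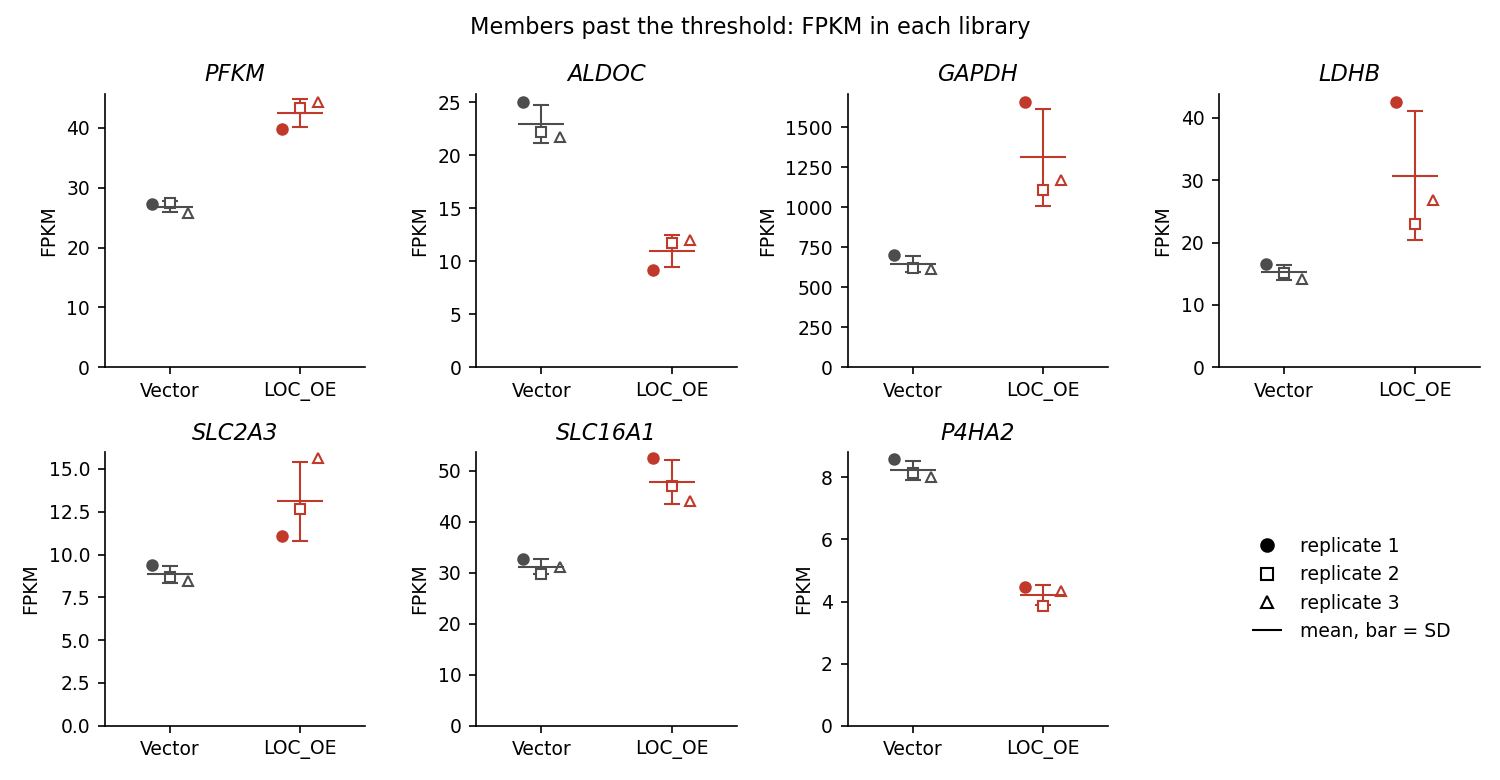
FPKM in each library for the 7 genes past the threshold, with Vector in grey and LOC_OE in red. Symbols are the 3 replicates of a group, and the bars are mean ± SD on axes from 0. The groups do not overlap in any panel, and LOC_OE replicate 1 lies highest for GAPDH, LDHB, SLC16A1 and P4HA2 and lowest for PFKM, SLC2A3 and ALDOC among the LOC_OE libraries.

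The 3 regulatory kinases gave no call with all libraries. PDK1 phosphorylates pyruvate dehydrogenase and so holds pyruvate back from the mitochondrion. It was at 3.74, 3.60 and 3.79 FPKM in Vector and at 2.65, 5.17 and 5.61 FPKM in LOC_OE. Replicate 1 lay below Vector and the others above, with a log2 fold change of 0.17 (limma adjusted p = 0.622), or 0.44 (adjusted p = 0.0055) without replicate 1. PFKFB3 and PFKFB4 make fructose-2,6-bisphosphate, the activator of phosphofructokinase. PFKFB3 read 10.8, 10.9 and 10.6 FPKM in Vector and 13.5, 9.73 and 11.3 FPKM in LOC_OE. Its log2 fold change of 0.07 (limma adjusted p = 0.693) turned to −0.04 without replicate 1. PFKFB4 was at 4.82 ± 0.459 FPKM in Vector and 3.69 ± 0.621 FPKM in LOC_OE (SD, n = 3), with a log2 fold change of −0.31 (limma adjusted p = 0.118).

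HIF1A mRNA did not pass the test. It read 19.0, 20.5 and 21.98 FPKM in Vector and 19.4, 18.1 and 20.2 FPKM in LOC_OE, and the groups overlapped. The log2 fold change was −0.09 (95% CI −0.30 to 0.13, limma adjusted p = 0.519), and HIF1A protein, which oxygen controls, was not measured by these data. EGLN1, the main prolyl hydroxylase of HIF1A, was at 11.7 ± 0.599 FPKM in Vector and 9.76 ± 0.735 FPKM in LOC_OE (SD, n = 3). All LOC_OE libraries were below all Vector libraries, with a log2 fold change of −0.24 (limma adjusted p = 0.0981). EGLN3, a hydroxylase that is itself a HIF target, was read 5, 2 and 3 times in the Vector libraries and 0, 0 and 1 time in the LOC_OE libraries, too few to compare.

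Among secreted and surface targets, CA9 was close to the detection limit. CA9 encodes carbonic anhydrase IX, a membrane enzyme widely used as a marker of hypoxic tumour cells. The Vector libraries held 28, 28 and 24 reads of CA9 and the LOC_OE libraries 0, 9 and 13, where a count of 0 allows up to 3. The LOC_OE libraries lay below Vector, with a log2 fold change of −0.55 (SE 0.18, limma adjusted p = 0.0773) that missed the threshold with and without replicate 1. CA9 passed the filter on low values only through its Vector level. Its exons share 38.5% of their bases with ARHGEF39 on the other strand, and the strand used in counting was not given in the sources used here. VEGFA, the angiogenic growth factor, read 3.39, 3.38 and 3.44 FPKM in Vector and 3.34, 5.77 and 5.83 FPKM in LOC_OE. LOC_OE replicate 1 was level with Vector and the other two well above it. The log2 fold change was 0.41 (limma adjusted p = 0.16), or 0.63 (adjusted p = 0.0016) without replicate 1. ADM, which encodes the vasodilator peptide adrenomedullin, gave −0.28 (limma adjusted p = 0.106).

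Of 7 intracellular hypoxia targets, P4HA2 was the one called. P4HA2 and P4HA1 are catalytic subunits of collagen prolyl 4-hydroxylase. P4HA2 read 8.58, 8.13 and 7.998 FPKM in Vector and 4.46, 3.86 and 4.34 FPKM in LOC_OE. The libraries of each group lay close together, and P4HA2 fell by 0.82 on the log2 scale (SE 0.083, limma adjusted p = 0.0046). The call held whichever of the 6 libraries was omitted. P4HA1 had a log2 fold change of 0.05 (95% CI −0.25 to 0.34).

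BNIP3 and BNIP3L are receptors for the removal of mitochondria by autophagy. BNIP3L read 20.1, 18.3 and 19.4 FPKM in Vector and 7.21, 13.7 and 14.96 FPKM in LOC_OE. All LOC_OE libraries lay below Vector, replicate 1 lowest, with a log2 fold change of −0.70 (SE 0.248, limma adjusted p = 0.093), or −0.40 (adjusted p = 0.0062) without replicate 1. BNIP3 had 285 reads in all against 507 on its 39 named copies, so its level of 0.571 ± 0.134 FPKM in Vector and 0.466 ± 0.114 FPKM in LOC_OE (SD, n = 3) is uncertain. NDRG1, a stress-response gene, was at 14.7 ± 1.03 FPKM in Vector and 10.5 ± 5.01 FPKM in LOC_OE, with 5.04 FPKM in replicate 1 and 14.9 FPKM in replicate 3, at a log2 fold change of −0.55 (limma adjusted p = 0.29), or −0.14 without replicate 1. KDM3A, a histone H3 lysine demethylase, read 5.79, 5.30 and 5.65 FPKM in Vector and 4.45, 5.83 and 5.94 FPKM in LOC_OE, at a log2 fold change of −0.05, or 0.07 without replicate 1. ANKRD37, an ankyrin repeat gene, had 0.909, 0.960 and 0.479 FPKM in Vector and 0.654, 0.822 and 0.791 FPKM in LOC_OE. Its fold change was −0.01, or 0.03 without replicate 1, and 35.2% of its exon bases overlap UFSP2 on the other strand.

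**Figure D3:**
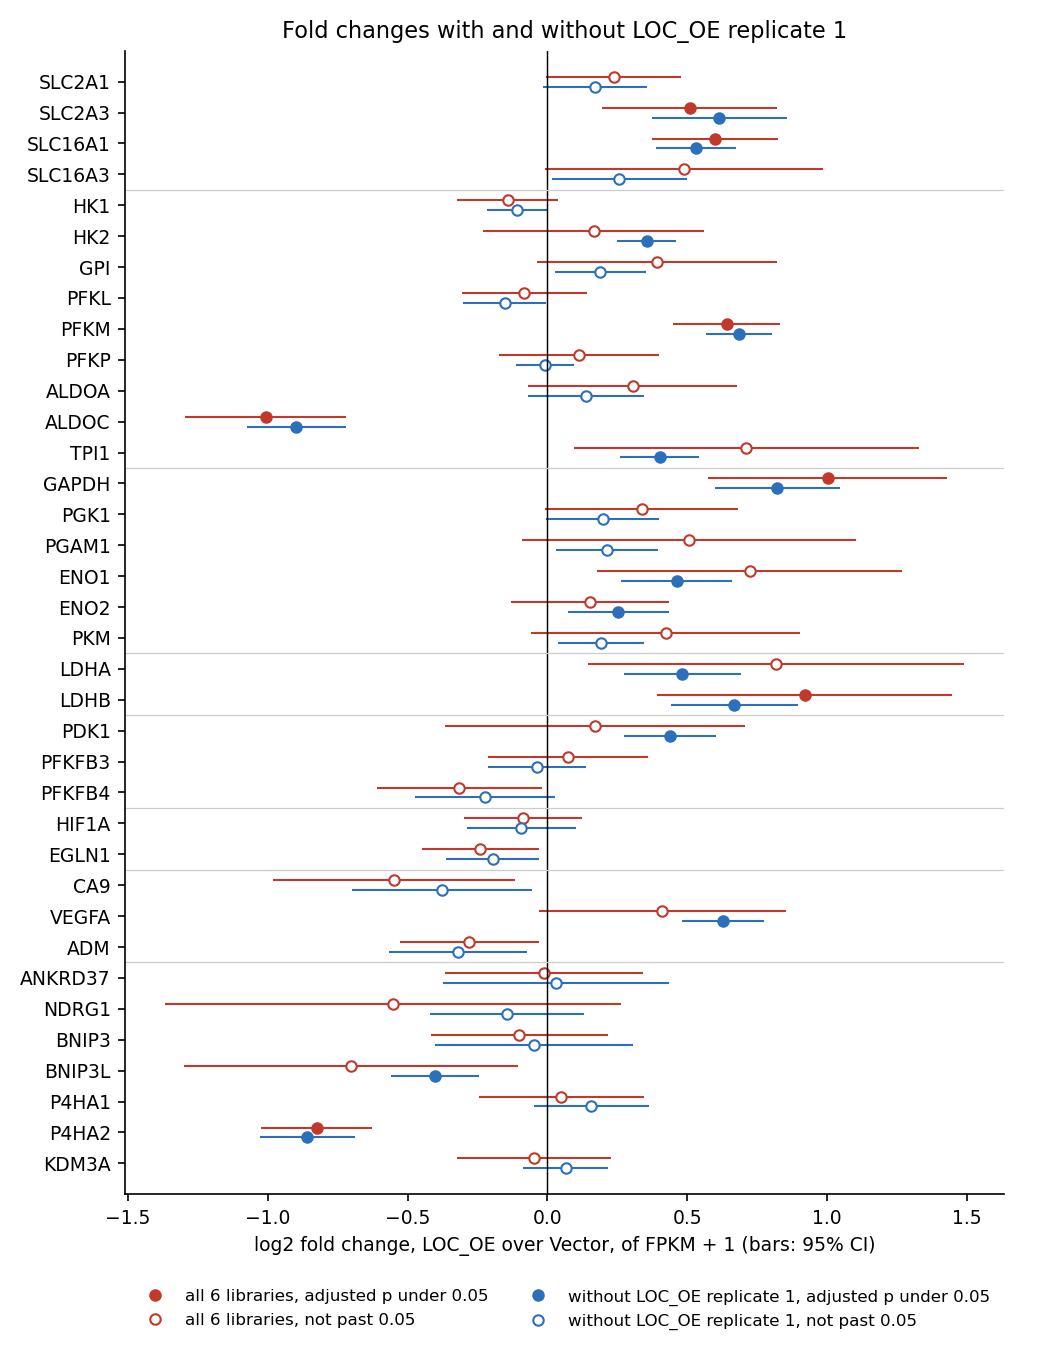
Log2 fold change of FPKM + 1 with its 95% confidence interval for the 36 tested genes, with all 6 libraries in red and without LOC_OE replicate 1 in blue; filled points passed an adjusted p of 0.05. Intervals are narrower without that library for most genes, and 15 points are filled in blue against 7 in red.

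LOC_OE replicate 1 was compared with replicates 2 and 3 over the glycolytic and the hypoxia genes. Over the 17 glycolytic enzymes and lactate dehydrogenases, the median difference from the Vector mean on the log2 scale was 0.64 in replicate 1 and 0.18 and 0.29 in replicates 2 and 3. In replicate 1, 13 of the 17 lay above the Vector mean, and HK1, HK2, ALDOC and ENO2 lay below it. Replicate 1 was the highest LOC_OE library for 12 of the 17, or 70.6%, against 45.0% of all genes tested. Over the 12 tested genes of HIF1A, its hydroxylases and the hypoxia targets, the median was −0.24, −0.15 and −0.00053 in replicates 1, 2 and 3. Replicate 1 was the lowest LOC_OE library for 9 of the 12, or 75.0%, against 39.4% of all genes. None of the 12 was above the Vector mean in replicate 1, whereas 4 and 6 were in the others. Among all genes tested, the difference of replicate 1 from the mean of replicates 2 and 3 also moved with expression level. Its median was −0.08, −0.09, 0.04 and 0.23 in 4 equal bins of genes by rising Vector FPKM, and 21 of the 36 genes of the list lay in the top bin. The part of level in the glycolytic values of replicate 1 was not tested. Replicates 2 and 3 gave the same 7 calls without it, and 8 further genes (HK2, TPI1, ENO1, ENO2, LDHA, PDK1, VEGFA and BNIP3L).

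**Figure D4:**
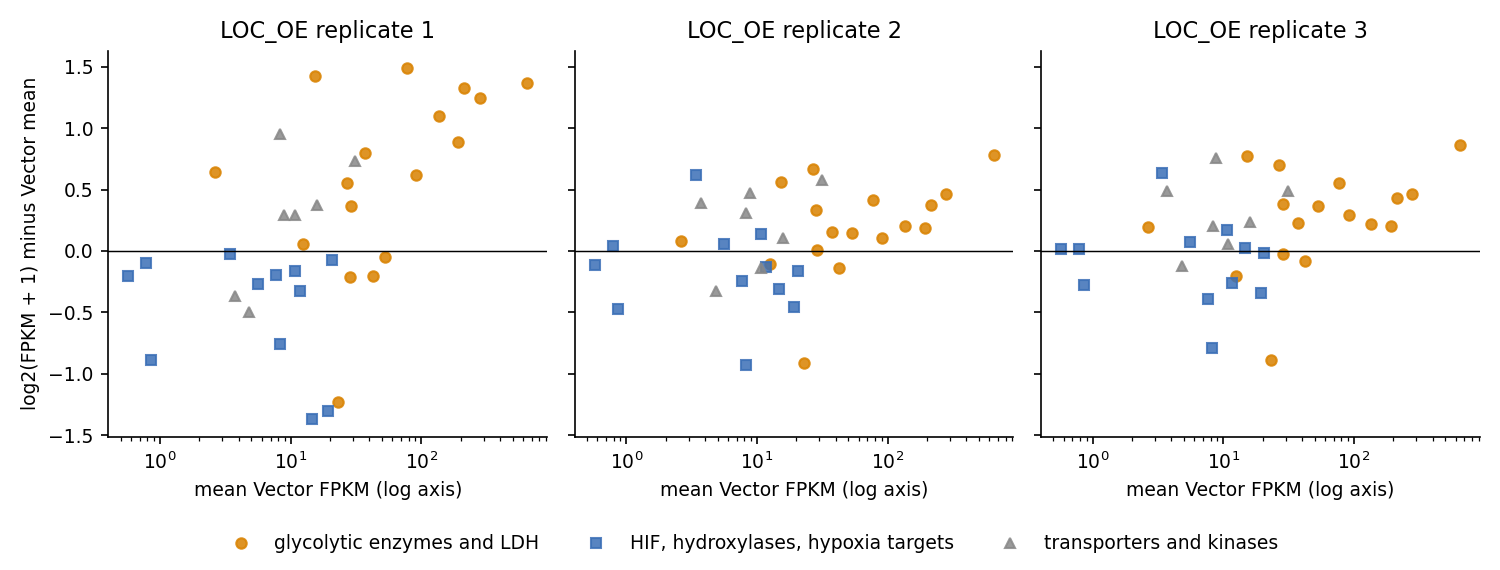
Difference of each LOC_OE library from the Vector mean in log2(FPKM + 1) against the mean Vector FPKM on a log axis, for the 36 tested genes, with 1 panel per LOC_OE library. Orange circles are glycolytic enzymes and lactate dehydrogenases, blue squares HIF1A, hydroxylases and hypoxia targets, and grey triangles transporters and kinases. In replicate 1 all 12 blue squares lie below 0 and the orange median is 0.64, whereas the panels of replicates 2 and 3 are flatter.

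Isoform shares were compared within each family by summing FPKM across genes of a library, with the limit on exon length given above. Of 13 shares, the 2 groups did not overlap in 7, with 1 higher and 6 lower in LOC_OE. For single genes, 24.4% of all tested lay higher without overlap and 20.9% lower. Among these 7 shares, those of PFKL, PFKM and PFKP depend on each other, and that of EGLN3 rests on 11 EGLN3 reads. An exact permutation test of 3 against 3 libraries cannot give less than p = 0.10, which these 7 reached (two-sided, 0.186 after Benjamini-Hochberg adjustment over 13), so none could pass 0.05. PFKM made up 39.4% ± 0.522 of phosphofructokinase FPKM in Vector and 49.7% ± 4.82 in LOC_OE (SD, n = 3), while PFKP made up 42.3% and 36.6% and PFKL 18.3% and 13.7%. By FPKM, PFKP was the leading isoform in every Vector library and PFKM in every LOC_OE library. By reads, which are not per length, PFKM already led in Vector, with 3751, 3726 and 3516 reads against 2582, 2628 and 2582 of PFKP. The change of leading isoform therefore rests on the exon lengths used. P4HA2 held 43.5% ± 1.47 of the P4HA1 and P4HA2 sum in Vector and 27.7% ± 3.99 in LOC_OE. ALDOC held 89.7% ± 1.16 of the aldolase sum in Vector and 75.4% ± 7.76 in LOC_OE, subject to the uncertain ALDOA level. The LDHB share, by contrast, was 16.5% ± 0.311 and 17.9% ± 1.41 with overlapping groups and an uncertain LDHB level, although LDHB passed the test and LDHA did not. HK2 held 40.1% ± 0.195 of the hexokinase sum in Vector, and 39.9%, 48.4% and 48.2% in LOC_OE replicates 1, 2 and 3.

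**Figure D5:**
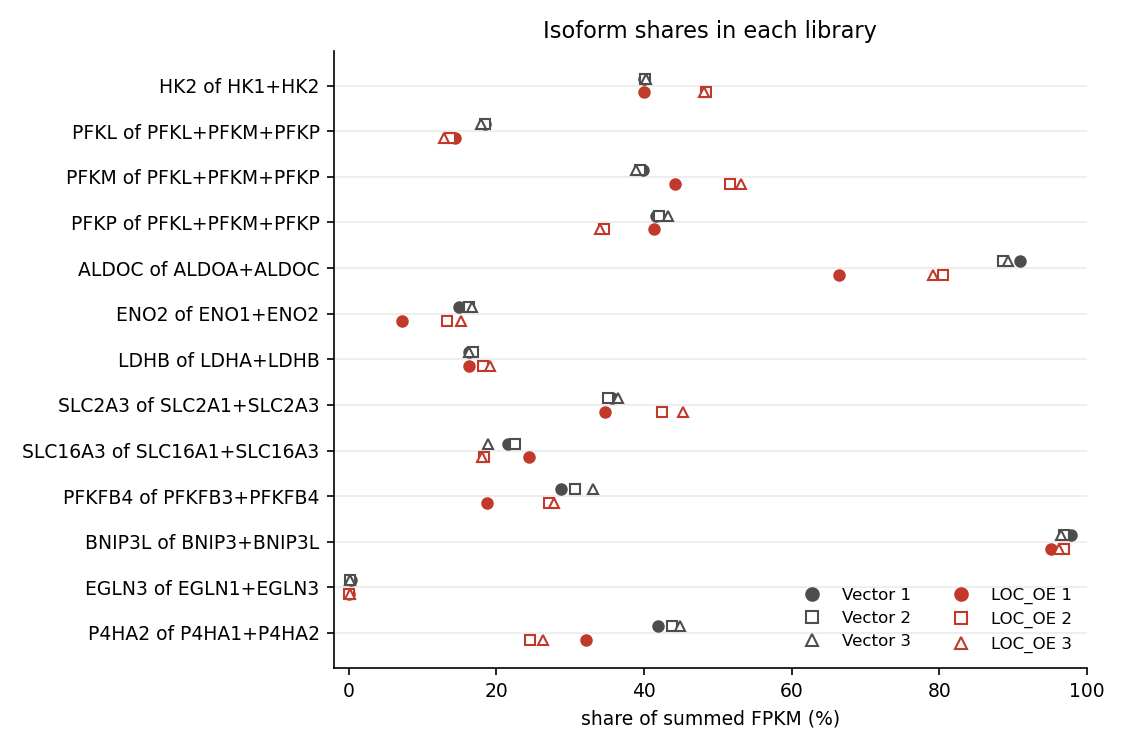
Share of 1 isoform in the summed FPKM of its family, in percent, for 13 shares in the 6 libraries, with Vector in grey and LOC_OE in red. The PFKM share lies higher and the PFKP, PFKL, ALDOC, PFKFB4 and P4HA2 shares lie lower in all LOC_OE libraries than in any Vector library, by 10.3 percentage points on average for PFKM and by −15.9 for P4HA2.

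Other genes of these pathways were read from 5 further lists with 123 genes, of which 97 were tested and 22 were called, 14 higher and 8 lower. That is 22.7%, near the 20.4% of all genes. The count was 3 to 5 without 1 of the Vector libraries, 40 without LOC_OE replicate 1 and 12 without LOC_OE replicate 2, where 1.63% to 3.74%, 36.7% and 11% of all genes were called. Among 17 tested regulators and partners of HIF, 3 were called, which is 17.6% against 20.4% of all genes. ELOC and VHL, components of the ubiquitin ligase that marks HIF1A, rose with log2 fold changes of 0.69 and 0.41 (limma adjusted p = 0.0217 and 0.023). ELOB, CUL2 and RBX1 of the same ligase, at 0.17, 0.28 and 0.69, were not called with all libraries (limma adjusted p = 0.672, 0.0851 and 0.124). EPAS1, which encodes HIF-2 alpha, read 4.85, 4.73 and 4.56 FPKM in Vector and 1.07, 1.76 and 2.42 FPKM in LOC_OE. It lay lower in every LOC_OE library and fell by 1.08 on the log2 scale (SE 0.182, limma adjusted p = 0.0132). Without any 1 of the Vector libraries ELOC, VHL and EPAS1 missed the threshold, and VHL did so without LOC_OE replicate 2 or 3 as well. ARNT, the partner of both HIF subunits, had a log2 fold change of −0.12 (limma adjusted p = 0.488).

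Of 36 further tested hypoxia response genes, 2 rose and 3 fell, which is 13.9% against 20.4% of all genes, and their median log2 fold change was −0.06. BHLHE40, a transcriptional repressor of the circadian and hypoxia responses, read 123, 112 and 112 FPKM in Vector and 48.9, 48.6 and 48.0 FPKM in LOC_OE. Its libraries were tight in both groups, and BHLHE40 fell by 1.24 on the log2 scale (SE 0.080, limma adjusted p = 0.0024), called whichever of the 6 libraries was omitted. RAB20 and ANKZF1 fell by 0.52 and 0.40. TFRC, the transferrin receptor, rose by 1.61 (SE 0.36, limma adjusted p = 0.0276), from 6.43 ± 0.142 FPKM in Vector to 41.2, 15.7 and 15.4 FPKM in LOC_OE, with replicate 1 far above the others. SLC6A8, the creatine transporter, rose by 0.39. RAB20, ANKZF1, TFRC and SLC6A8 missed the threshold without any 1 of the Vector libraries, and SLC6A8 also without LOC_OE replicate 2 or 3.

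Among 12 further tested glycolytic enzymes and isoforms, PGM2 and ADPGK rose by 0.77 and 0.31 and LDHD fell by 1.82 on the log2 scale. PGM2 is a phosphomutase of pentose and glucose phosphates, ADPGK an ADP-dependent glucokinase and LDHD the mitochondrial D-lactate dehydrogenase. LDHD read 4.27, 4.11 and 3.92 FPKM in Vector and 0.159, 0.502 and 0.721 FPKM in LOC_OE (SE 0.157, limma adjusted p = 0.0034). LDHD passed the filter on low values only through its Vector level. Neither the gap between its groups nor its call, which held whichever library was omitted, is therefore taken as support. PGM2 missed the threshold without Vector replicate 2 (adjusted p = 0.0529), and ADPGK passed it only with all libraries or without LOC_OE replicate 1.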

How the data were processed

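The authors extracted RNA with Trizol, built libraries by the NEBNext Ultra protocol and read them as paired ends (NovaSeq). The submitters' processing notes name HISAT2 2.0.4, StringTie 1.3.0 and hg38; the annotation, the strand used in counting and the differential test were not given in the sources used here. The authors deposited FPKM values of 58735 genes in 6 libraries, all of whose identifiers matched GENCODE 29. Multiplied by merged exon length, 100% of the values were whole reads (tolerance 0.01), and the authors' scaling was that of median-of-ratios size factors. Intervals cover the spread between libraries. limma 3.58.1 in R 4.3.3 modelled log2(FPKM + 1), the variance trend included, after a filter of 0.5 FPKM in 3 libraries, with Benjamini-Hochberg adjustment over all 16061 genes. On simulated data it recovered 30% of 1.5-fold, 62% of 2-fold and 73% of 4-fold changes. For genes of at least 5 FPKM these were 46.2%, 96.2% and 100%. It called 17 of 15940 unchanged genes. The simulation gave all genes the same dispersion and held no library that stood apart, unlike the data. Isoform shares were compared by exact permutation in SciPy 1.17.1. The alternatives were other pseudocounts, filters and scalings, array weights, a replicate block, limma voom on the recovered reads, and leaving out each library. The genes and lists were chosen with earlier results of these data known. FPKM in every library is given for called genes, for HIF1A and for genes whose sign or call changed without LOC_OE replicate 1; the others are given by means, ranges and counts, and from the other lists the called genes are named. Promoters came from RefSeq (GRCh38.p14), and 5 genes of the list (SLC2A3, SLC16A1, VEGFA, NDRG1 and BNIP3L) had none in the table. A count of 0 reads was taken to allow up to 3 reads, which covers counting error only.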

Additional observations from a re-analysis of the deposited data

How the results depend on the processing

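Called genes of the list, 7 of 36 in limma, numbered 4 without the filter on low FPKM, 11 with the same sum of FPKM, 19 with array weights, 15 at an unadjusted p under 0.05 and 2 to 15 when 1 library was left out, lowest without Vector replicate 2 or 3 and highest without LOC_OE replicate 1. ALDOC, P4HA2 and SLC16A1 kept their call in all 10 alternatives with every library, PFKM, GAPDH and LDHB in 9, and SLC2A3 in 6. One of the 10, the median-of-ratios rescaling, repeats the authors' own scaling, so it could not move a call. Over all genes, 3277 calls became 8086 with array weights, 5855 unadjusted, 1639 with a fold of at least 1.5 and 249 to 5738 leaving out 1 library. For the 5 other lists, 22 calls became 57 with array weights, 44 unadjusted, 10 with the fold limit and 3 to 40 leaving out 1 library. Replicate numbers were not shown to pair the libraries: deviations of Vector and LOC_OE libraries of the same number correlated at 0.111, −0.034 and 0.116. With the replicate number as a block, 2065 genes were called over all genes and 7 of the list, where ENO1 (adjusted p = 0.0498) took the place of SLC2A3 (adjusted p = 0.0772); no other call of the list changed. Fold changes that turned sign belonged to genes that were not called. With the same sum of FPKM these were HK2 −0.088, PFKP −0.14, ENO2 −0.10, SLC2A1 −0.010, PDK1 −0.031, PFKFB3 −0.17 and P4HA1 −0.19. With quantile normalization they were HK2 −0.053, PFKP −0.11, ENO2 −0.11, PFKFB3 −0.019, ANKRD37 0.15, BNIP3 0.060 and P4HA1 −0.011. With array weights they were PFKFB3 −0.11, ANKRD37 0.025 and KDM3A 0.063, and with limma voom ANKRD37 0.0086. Leaving out 1 library, PFKP ranged from −0.0090 to 0.18, PFKFB3 from −0.038 to 0.18, ANKRD37 from −0.14 to 0.062, P4HA1 from −0.012 to 0.16 and KDM3A from −0.11 to 0.065. The PFKL share differed by −4.61 percentage points from FPKM and by −6.45 from recovered reads, which are not per length. The causes of these changes were not tested. Depth limits EGLN3 with 11 reads, CA9 with 102, ANKRD37 with 204 and BNIP3 with 285 in all 6 libraries.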

Other observations

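Pyruvate entry into the mitochondrion and the pentose phosphate pathway, which branch from glycolysis, were read from 2 of the other lists. Of 22 tested genes of pyruvate entry and of glucose and lactate transport, 5 rose and 2 were called lower, which is 31.8% against 20.4% of all genes, and their median log2 fold change was −0.00070. DLD and DLAT, subunits of the pyruvate dehydrogenase complex, rose by 0.75 and 0.58 (limma adjusted p = 0.0046 and 0.0195), and PDHB rose by 0.29 at the edge of the threshold (limma adjusted p = 0.0498). DLD read 25.7, 24.6 and 25.4 FPKM in Vector and 43.3, 44.6 and 41.6 FPKM in LOC_OE, and LOC_OE replicate 1 did not stand apart there. The DLD call held whichever of the 6 libraries was omitted. PDP2, a phosphatase that activates the complex, rose by 0.40, and ME2, the mitochondrial malic enzyme, rose by 0.51. SLC2A10, a glucose transporter, fell by 0.35 on the log2 scale. The other, the transporter SLC2A12, read 1.3, 1.12 and 1.29 FPKM in Vector and 0.0559, 0.154 and 0.259 FPKM in LOC_OE. It passed the filter on low values only through Vector, with all LOC_OE values under 0.5 FPKM, so its groups could not overlap. Its call is therefore not taken as support. The calls of DLAT, PDHB, PDP2 and SLC2A10 were lost without any 1 of the Vector libraries, and that of ME2 without Vector replicate 2 or 3. Those of PDHB, PDP2 and SLC2A10 were lost without LOC_OE replicate 2 or 3 as well.

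Of 10 tested genes of the pentose phosphate pathway, 3 rose and 1 fell, which is 40.0% against 20.4% of all genes, and their median log2 fold change was 0.35. PRPS1 and PRPS2, which make phosphoribosyl pyrophosphate for nucleotides, rose by 0.61 and 0.44 (limma adjusted p = 0.0468 and 0.0291), and RPE, an epimerase, rose by 0.31. H6PD, the dehydrogenase of the endoplasmic reticulum, fell by 0.78 (limma adjusted p = 0.0378), with 7.20, 7.40 and 7.79 FPKM in Vector and 2.57, 4.65 and 4.91 FPKM in LOC_OE. The call of each of PRPS1, PRPS2 and H6PD held in 2 of 6 fits with 1 library omitted, and that of RPE in 1; all 4 were lost without any 1 of the Vector libraries.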
